A study of Mus musculus with 28 samples.

Results

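Complex I, the NADH:ubiquinone oxidoreductase of the inner mitochondrial membrane, passes electrons from NADH to ubiquinone and pumps protons. Its redox chain runs through core subunits, and around them sit many small accessory subunits, most of which have no catalytic part but are needed to build and hold the complex. The core proton-pumping subunits are encoded by the mitochondrial genome and all other subunits by nuclear genes named Nduf, so the complex depends on the output of both genomes. This account describes the nuclear subunit transcripts in microglia, the resident macrophages of the brain. The members were the genes with a symbol of Nduf followed by a, b, c, s, v or ab and a number, and with a mean of at least 1 CPM (read counts scaled to the same library size). There were 48587 genes in the counts, of which 37 met this rule, and all 37 were among the 15298 genes that passed the low-count filter. They comprised 7 core subunits, 29 accessory subunits and Ndufa4, which carries the family name but is now placed in complex IV.

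The RNA came from CD11b+CD45lo cells sorted from the hippocampus of 28 mice aged 16 weeks, with a gate that excluded cells stained for Ly6G, Ly6C or lymphocyte antigens. 5xFAD mice were heterozygous males on a C57BL/6J background, in which the neuron-specific Thy-1 promoter drives human APP with the Swedish, Florida and London mutations and human PS1 with a pair of familial mutations, and the controls were non-transgenic wild-type (WT) littermates. Mice were kept specific pathogen free (SPF, 5 WT and 3 5xFAD), were germ-free (GF, 4 WT and 5 5xFAD), or were SPF mice given vancomycin, cefoxitin, gentamicin and metronidazol in the drinking water for 8 weeks (ABX, 5 WT and 6 5xFAD). GF mice came from another facility than the rest, so GF housing and origin cannot be told apart. Mouse FAD_GF_201 was labelled GF 5xFAD in its title, genotype and housing fields but GF WT in a description line. It was kept as GF 5xFAD, and counts are also given without it. Groups also differ in how the labels name their libraries: SPF mice, ABX WT mice and FAD_ABX_1151 carry a mouse number, while a group name takes its place in all GF and the remaining ABX 5xFAD mice. The labels do not call these batches. The genotype comparisons in GF and in SPF mice lie within one style, as do ABX against SPF WT mice and, apart from FAD_ABX_1151, ABX against GF 5xFAD mice. The other comparisons cross the styles, and the part of the style in them was not tested. Replicates were separate mice, so p-values measure the spread between mice.

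Libraries held 14441610 to 29977395 counted reads, and a member gene had between 88 and 4349 reads in a library. All 8 microglia markers, such as P2ry12 and Cx3cr1, were read in every library and summed to 41528 to 61154 CPM. This sum was lowest in GF 5xFAD mice, at 41528 to 42953 CPM in 4 of the 5 and 51289 CPM in FAD_GF_201, against 46244 CPM or more in every other mouse, so it moved with the group that has the highest subunit levels. Within each housing it was also lower in every 5xFAD mouse than in any WT mouse. The 5 astrocyte markers, nearly all of it Slc1a3, summed to 153 to 188 CPM in GF 5xFAD mice and to 200.4 CPM or more in every other mouse. The 5 endothelial markers, mostly Pecam1, summed to 9.42 to 21.4 CPM in GF 5xFAD mice, 16.9 to 30.2 CPM in ABX 5xFAD mice and 23.9 CPM or more in the remaining mice. The part of these lists in the results was not tested. The 8 neutrophil markers, including S100a8 and Ngp, summed to 65.5 to 274 CPM in SPF 5xFAD mice and 151 CPM in mouse FAD_ABX_1151, against at most 0.294 CPM in the other mice. Of these markers Ly6g and Retnlg were at most at 0.266 and 0.148 CPM in any library, so they added almost nothing to the sums. The 6 markers of border-associated macrophages, such as Mrc1 and Lyve1, summed to 32.8 to 242 CPM in ABX 5xFAD mice, 9.43 to 77.01 CPM in GF 5xFAD mice and 15.3 to 28.3 CPM in SPF 5xFAD mice. In WT mice they summed to 3.74 to 5.90 CPM under ABX, 10.7 to 41.9 CPM in GF and 3.48 to 8.09 CPM in SPF housing, so the genotypes did not overlap in ABX and SPF mice and overlapped in GF mice. In a bulk sample, fewer cells of a type and less RNA per cell cannot be told apart.

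The promoters of 4 genes are shown because these genes lead the comparisons that follow. Ndufa1, Ndufb2 and Ndufb8 had the smallest p-values between GF 5xFAD and GF WT mice among members with a single entry in the promoter table, and Ndufs8, added after its values were seen, had the smallest between GF and SPF 5xFAD mice. Each runs 5′ to 3′ along its gene, from 250 bases before to 50 bases after the RefSeq start of build GRCm38.p6. Positions are chrX:37191189-37191488, minus strand, for Ndufa1, chr6:39592315-39592614, plus strand, for Ndufb2, chr19:44555393-44555692, minus strand, for Ndufb8, and chr19:3912725-3913024, minus strand, for Ndufs8. The Ndufa1 window lies wholly upstream of the GENCODE span of the counted gene, given below, while the other 3 windows reach into theirs. Capitals mark a YY1 motif in Ndufb8 and, on the reverse strand, a GABPA/ETS motif in Ndufs8.
Ndufa1: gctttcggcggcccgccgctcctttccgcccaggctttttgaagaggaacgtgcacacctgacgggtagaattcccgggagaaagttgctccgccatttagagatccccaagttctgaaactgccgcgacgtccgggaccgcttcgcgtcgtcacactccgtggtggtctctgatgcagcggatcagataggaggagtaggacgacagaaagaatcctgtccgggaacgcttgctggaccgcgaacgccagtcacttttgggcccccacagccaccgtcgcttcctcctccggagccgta
Ndufb2: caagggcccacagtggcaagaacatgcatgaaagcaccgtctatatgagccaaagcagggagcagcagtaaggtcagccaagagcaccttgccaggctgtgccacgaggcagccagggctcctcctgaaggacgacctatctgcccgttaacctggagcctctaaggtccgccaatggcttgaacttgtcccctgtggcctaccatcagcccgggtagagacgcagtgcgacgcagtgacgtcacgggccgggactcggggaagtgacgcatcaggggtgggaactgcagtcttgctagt
Ndufb8: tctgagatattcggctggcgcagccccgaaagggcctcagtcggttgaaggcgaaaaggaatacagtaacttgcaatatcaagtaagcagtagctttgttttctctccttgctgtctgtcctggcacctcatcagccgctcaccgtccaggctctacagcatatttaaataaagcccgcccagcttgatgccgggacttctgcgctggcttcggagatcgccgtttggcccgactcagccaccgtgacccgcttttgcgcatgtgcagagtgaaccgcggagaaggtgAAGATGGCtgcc
Ndufs8: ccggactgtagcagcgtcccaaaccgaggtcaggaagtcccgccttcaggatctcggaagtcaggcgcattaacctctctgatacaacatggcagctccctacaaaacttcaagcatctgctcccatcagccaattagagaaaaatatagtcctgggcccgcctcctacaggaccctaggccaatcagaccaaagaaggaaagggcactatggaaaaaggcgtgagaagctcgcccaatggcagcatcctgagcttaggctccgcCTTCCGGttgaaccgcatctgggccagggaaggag
The RefSeq promoter table used here had 35 entries for 33 of the 37 members. Those without an entry in it included Ndufa2, Ndufb9 and Ndufs1. Both strands were searched for fixed letters of 3 factors known to bind promoters of respiratory genes, and for a TATA box. The YY1 letters AAGATGGC stood in 7 of the 35 promoters (20%), those of Ndufa3, Ndufa9, Ndufb8, Ndufc1, Ndufs4, Ndufs6 and Ndufs7, against 2.75% of all 32851 promoters of the table. The NRF1 letters GCATGCGC stood in 3 (8.57%, against 2.71%), the GABPA/ETS letters CCGGAAG in 4 (11.4%, against 8.86%) and TATAAA in 5 (14.3%, against 13.6%). The 5 entries with TATAAA include both overlapping entries of Ndufa7, so they come from fewer genes. The Ndufb8 match began 39 bases and the Ndufs8 match 16 bases into the gene, counting its first base as 1. Ndufa1 and Ndufb2 held none of the 4 motifs in these windows. A match is a description of letters and not a bound site.

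Microglia of GF 5xFAD mice had the highest subunit transcript levels. The mean log2 CPM over the 37 genes, on a scale normalised for library composition, was 5.89 ± 0.16 (SD, n = 5) in GF 5xFAD mice. It was 5.41 ± 0.13 (n = 3) in SPF 5xFAD, 5.44 ± 0.24 (n = 6) in ABX 5xFAD, 5.26 ± 0.12 (n = 5) in SPF WT, 5.32 ± 0.13 (n = 4) in GF WT and 5.38 ± 0.09 (n = 5) in ABX WT mice. As a share of all reads the genes made up 0.245% ± 0.020 in GF 5xFAD mice and group means of 0.179% to 0.194% elsewhere. The 5 GF 5xFAD mice measured 6.00, 5.86, 5.89, 6.03 and, in FAD_GF_201, 5.64. The 3 SPF 5xFAD mice measured 5.55, 5.32 and 5.35, and the 4 GF WT mice 5.13, 5.39, 5.43 and 5.32. Thus every GF 5xFAD mouse lay above every SPF 5xFAD and GF WT mouse. The ABX 5xFAD mice spread most, from 5.15 to 5.71 around a median of 5.43, and the upper end overlapped FAD_GF_201. For 35 of the 37 genes the highest of the 6 group means was that of GF 5xFAD mice. The exceptions were Ndufs1, highest in SPF WT mice, and Ndufab1, highest in ABX WT mice.

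**Figure D1:**
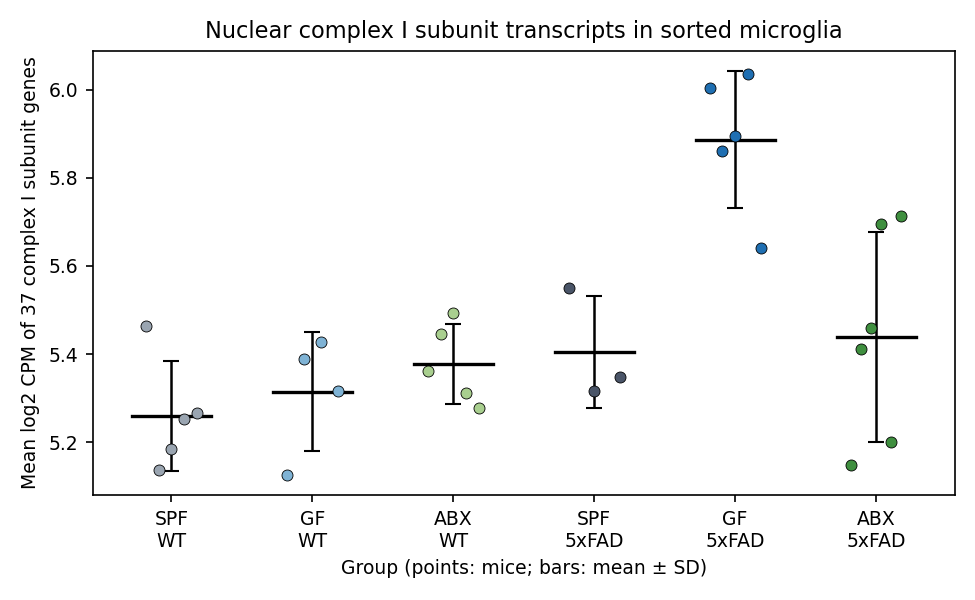
Mean log2 CPM of the 37 nuclear complex I subunit genes in each mouse (points) by group, with the group mean and SD (bars). The 5 GF 5xFAD mice lie between 5.64 and 6.03, above all SPF 5xFAD and GF WT mice, and the 6 ABX 5xFAD mice span 5.15 to 5.71.

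Levels between genes were compared per length, as RPKM, which is CPM divided by the summed exon length in kilobases. Ndufc2, a small subunit of the membrane arm, was highest at 121 RPKM as a mean over all mice. It was followed by Ndufb9, Ndufa2 and Ndufa1 at 111, 110 and 104 RPKM. Ndufb2 was lowest at 3.99 RPKM and Ndufab1 next at 4.48 RPKM, both with long exon models of 5628 and 6883 bases. Per kilobase of the principal transcript Ndufc2 was again first and Ndufb2 again last. The principal transcripts of Ndufb2 and Ndufab1 are also long, at 4371 and 3479 bases. By CPM, without regard to length, Ndufs5 was lowest at a mean of 7.03, and Ndufb2 was at 22.4. Ndufb2 also overlaps a second gene model on the same strand, a limit given below. Among the core subunits levels ran from 10.3 RPKM for Ndufs1 to 91.9 RPKM for Ndufs8. Ndufa4l2, an Ndufa4 relative, had 0 reads in every library. Ndufb1-ps, Ndufb4b and Ndufb4c were not analysed here.

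The effect of the 5xFAD genotype was first asked in each housing condition. In GF mice 27 of the 37 genes were higher in 5xFAD than in WT mice and 0 were lower, where 9.43% of all genes tested were higher and 6.2% lower (edgeR quasi-likelihood test, Benjamini-Hochberg adjusted p under 0.05, as for all calls that follow). In SPF mice 1 of 37 was higher (3.73% of all genes) and 0 were lower (0.837%). In ABX mice 3 of 37 were higher (9.45%) and 0 were lower (4.98%). At an unadjusted p under 0.05 the SPF comparison had 3 higher genes, and the ABX comparison had 6 higher and 3 lower genes. The median log2 fold change of the 37 genes was 0.58 in GF mice, 0.11 in SPF mice and 0.07 in ABX mice, against -0.03, -0.03 and -0.01 over all genes. With 1 mouse left out the SPF median ran from 0.04 (without FAD_SPF_1144) to 0.16 (without WT_SPF_912), and the ABX median from 0.02 (without FAD_ABX_1482) to 0.13 (without FAD_ABX_1460). Without mouse FAD_GF_201 the GF count was 28 and the median 0.67, and the lowest count on leaving out 1 mouse was 18, without WT_GF_199. For fits that left out 1 mouse, here and below, the share of all genes called was not computed. DESeq2 called 28, 1 and 3 genes higher in GF, SPF and ABX mice (10.8%, 4.48% and 10.7% of all genes), and limma with voom and sample weights, the study's own kind of fit, called 27, 3 and 2 (9.64%, 8.45% and 8.84%). Scaled by library size alone, 7.24% of all genes were higher and 12.5% lower in GF mice, 3.48% and 1.41% in SPF mice, and 7.58% and 8.57% in ABX mice. The members then had 19 higher in GF mice, 1 higher in SPF mice, and in ABX mice Ndufa1 and Ndufa13 higher and Ndufa6 lower (-0.37 ± 0.13, adjusted p = 0.0431), with an ABX median of -0.00995.

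**Figure D2:**
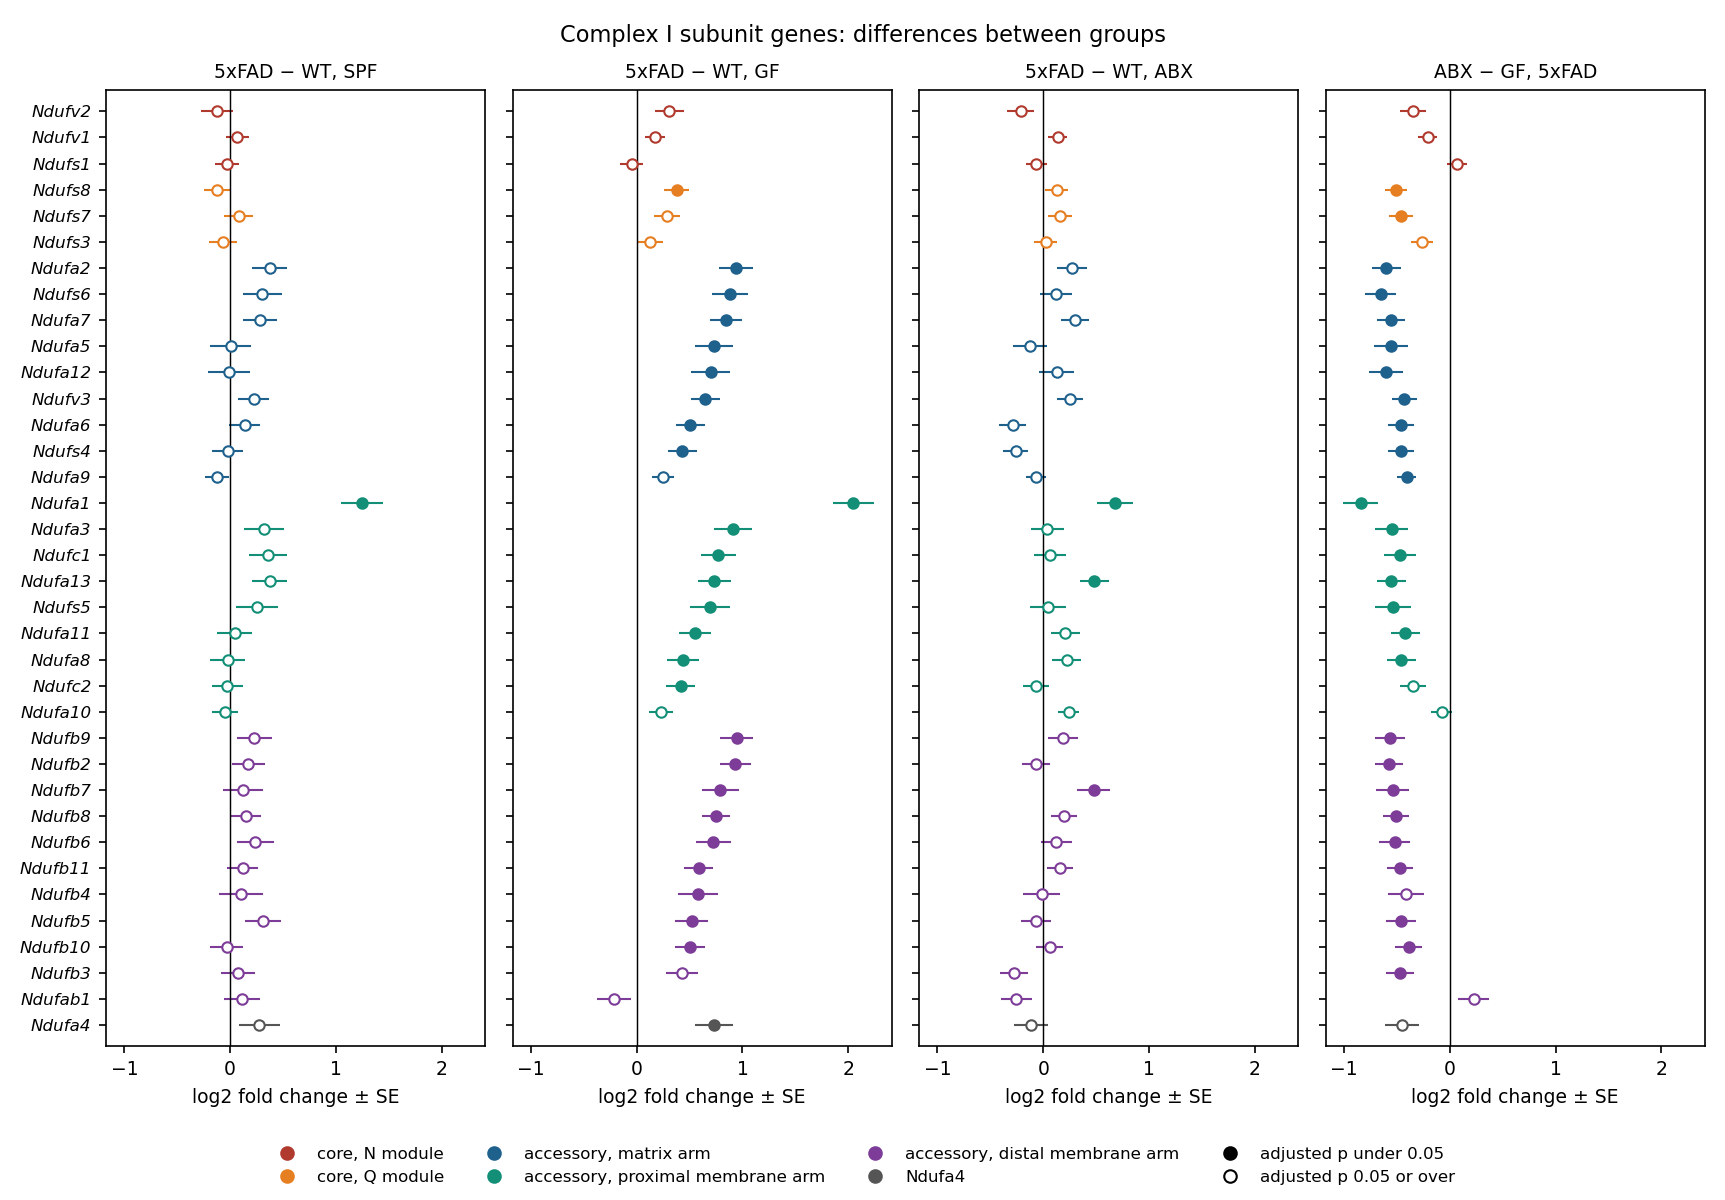
log2 fold change ± SE (edgeR) of 36 of the 37 genes in 4 comparisons, coloured by the place of the subunit in the complex, with filled points at an adjusted p under 0.05. In GF mice 27 genes lie to the right with filled points, among them 1 core subunit and 25 of 29 accessory subunits, and in ABX against GF 5xFAD mice most genes lie to the left with filled points.

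Ndufa1, an X-linked gene for a small membrane subunit needed for assembly (chrX:37187588-37191163, minus strand, GRCm38), changed most and was the only member called in all 3 genotype comparisons. SPF WT mice had 4.93, 4.39, 4.37, 4.47 and 4.56 log2 CPM and SPF 5xFAD mice 6.03, 5.70 and 5.65. GF WT mice had 4.07, 4.35, 4.59 and 4.38, and GF 5xFAD mice 6.70, 6.38, 6.30, 6.76 and, in FAD_GF_201, 5.60. ABX WT mice had 5.04, 4.97, 5.11, 4.63 and 4.59, and ABX 5xFAD mice ranged from 5.25 to 6.07 with a median of 5.44. In none of the 3 housings did 5xFAD and WT mice overlap. The log2 fold change was 2.05 ± 0.20 (SE) in GF mice, a 4.14-fold difference (adjusted p = 7.87e-09). It was 1.25 ± 0.20 in SPF mice (adjusted p = 8.48e-05) and 0.68 ± 0.17 in ABX mice (adjusted p = 0.00651). Neutrophil and border-associated macrophage markers were also higher in every SPF 5xFAD mouse than in any SPF WT mouse, by the values given above, and their part in the SPF call was not tested. All 3 calls held in each of the 39 alternative fits in which they were recomputed. No other annotated gene overlaps Ndufa1.

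Behind Ndufa1 in GF mice stood Ndufb2 and Ndufb9, subunits of the distal membrane arm. Ndufb9 is a LYR-motif protein, a kind that binds the acyl carrier protein. Ndufb2 was at 3.85, 4.06, 4.18 and 4.14 log2 CPM in GF WT mice and at 5.27, 4.68, 4.91, 5.29 and 4.67 in GF 5xFAD mice. The difference was 0.93 ± 0.15 (adjusted p = 3.9e-05). Ndufb9 was at 5.55, 5.77, 6.09 and 5.73 in GF WT mice and at 6.80, 6.80, 6.85, 6.94 and, in FAD_GF_201, 6.23 in GF 5xFAD mice. Its difference was 0.95 ± 0.16 (adjusted p = 6.48e-05), and 1.06 without FAD_GF_201. For both genes every GF 5xFAD mouse exceeded every GF WT mouse. In SPF mice the differences were 0.17 ± 0.16 for Ndufb2 and 0.23 ± 0.17 for Ndufb9 (adjusted p = 0.762 and 0.647). Ndufb2 and Ndufb9 each overlap a second gene model on the same strand, Gm42420 and Gm49356, so reads could be split between models and these values are uncertain. Ndufa13 with Yjefn3 and Ndufb8 with Gm20538 share this limit.

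In ABX mice Ndufa13, a membrane-arm subunit also known as GRIM-19, was 0.48 ± 0.14 higher in 5xFAD than in WT mice (adjusted p = 0.0171). ABX WT mice ranged from 5.65 to 5.88 log2 CPM and ABX 5xFAD mice from 5.69 to 6.69, so the groups overlapped. Ndufb7, a distal-arm subunit that faces the intermembrane space, was 0.48 ± 0.16 higher (adjusted p = 0.0407), with ABX WT mice at 5.25 to 5.44 and ABX 5xFAD mice at 5.16 to 6.45. The low end of both ABX 5xFAD ranges was mouse FAD_ABX_1151 and the high end FAD_ABX_1482. Without FAD_ABX_1151 the count in ABX mice was 6 of 37, and without FAD_ABX_1482 it was 1. The share of all genes called in these fits was not computed, so these counts cannot be read against it. Border-associated macrophage markers were higher in every ABX 5xFAD mouse than in any ABX WT mouse, as given above, and their part in these calls and in that of Ndufa1 was not tested. With offsets for GC content neither gene was called (adjusted p = 0.172 for Ndufa13 and 0.262 for Ndufb7). In SPF mice Ndufa13 and Ndufa2, next to Ndufa1, differed by 0.37 each and missed the threshold (adjusted p = 0.267 and 0.286).

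The genes were then grouped by role. Of the 7 core subunits 1 was higher in GF 5xFAD than in GF WT mice, where 9.43% of all genes were higher, with a median log2 fold change of 0.17. Of the 29 accessory subunits 25 were higher, with a median of 0.70. Ndufa4 was also higher, by 0.73 ± 0.18 (adjusted p = 0.00524). Among accessory subunits, calls were made for 8 of 9 in the matrix arm, 8 of 9 in the proximal membrane arm and 9 of 11 in the distal membrane arm. Accessory subunits not called were Ndufa9 (0.25 ± 0.10), Ndufa10 (0.23 ± 0.11), Ndufb3 (0.43 ± 0.15) and Ndufab1 (-0.21 ± 0.16). Ndufab1 is the mitochondrial acyl carrier protein, which also serves fatty acid synthesis outside the complex.

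The N module takes electrons from NADH. Its core subunits are Ndufv1, which binds NADH and the flavin, Ndufv2 and Ndufs1, which carry iron-sulfur clusters. Ndufv1 differed by 0.17 ± 0.10 between GF 5xFAD and GF WT mice, Ndufv2 by 0.31 ± 0.14 and Ndufs1 by -0.05 ± 0.11 (adjusted p = 0.248, 0.14 and 0.827). Ndufs1 measured 6.57, 6.30, 6.18 and 6.26 log2 CPM in GF WT mice and 6.40, 6.29, 6.04, 6.29 and 6.39 in GF 5xFAD mice, so the groups overlapped. The Q module reduces ubiquinone. Among its core subunits, Ndufs7 lines the ubiquinone site, Ndufs8 holds iron-sulfur clusters and Ndufs3 joins the module. Ndufs8 was higher by 0.38 ± 0.12 (adjusted p = 0.0261), while Ndufs7 (0.29 ± 0.12) and Ndufs3 (0.13 ± 0.12) were not called. Of 28 fits that left out 1 mouse each, 24 kept the Ndufs8 call, and of all 39 alternative fits 31 kept it. Both gene-length offsets and scaling by library size alone lost it, and with library size alone no core subunit was called.

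**Figure D3:**
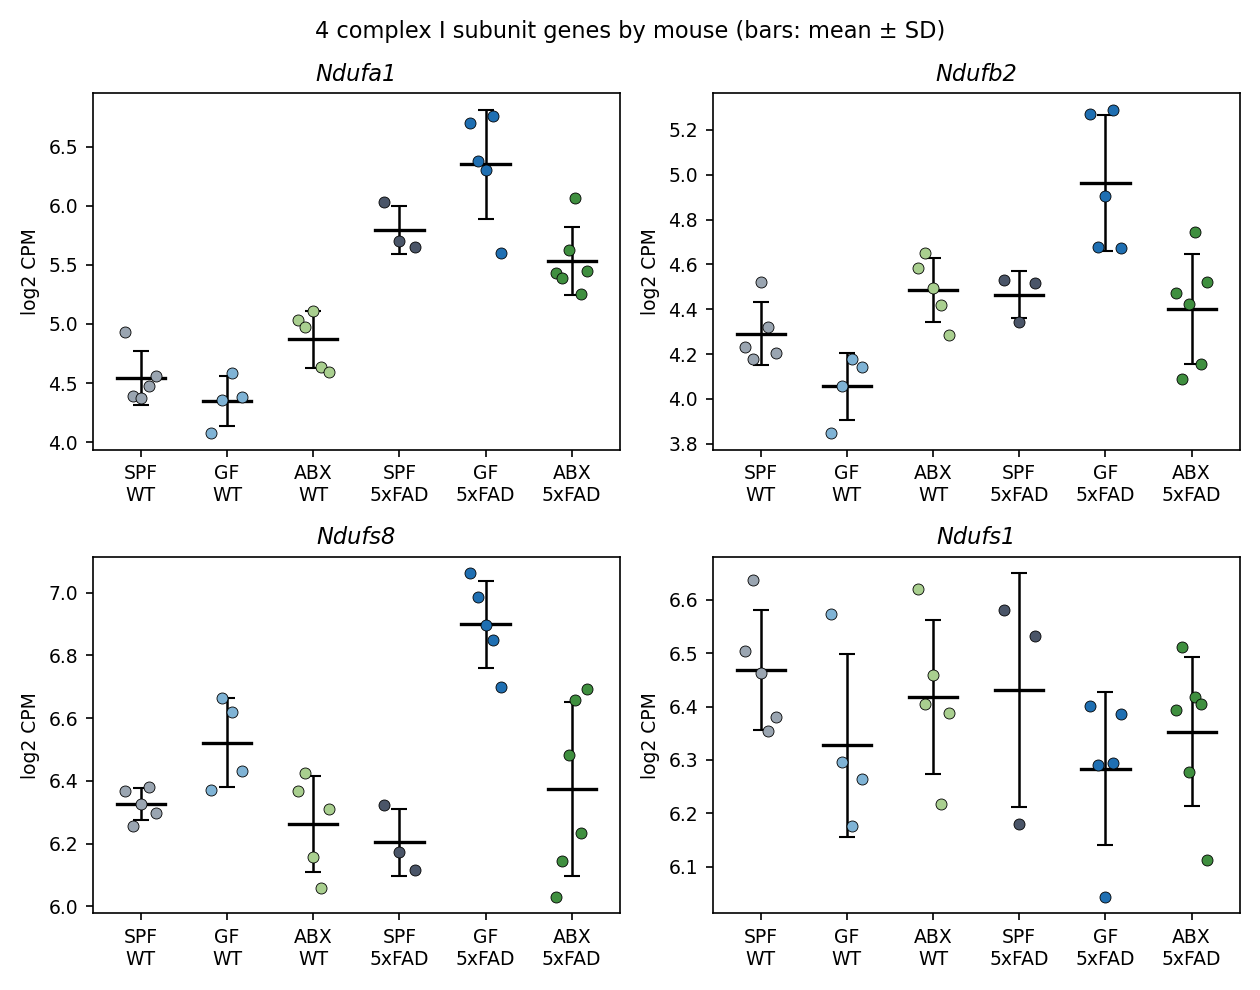
log2 CPM of Ndufa1, Ndufb2, Ndufs8 and Ndufs1 in each mouse (points) by group, with mean and SD (bars) and a separate scale for each gene. Ndufa1 is higher in 5xFAD mice of every housing, Ndufb2 and Ndufs8 are highest in GF 5xFAD mice, and the groups of Ndufs1 overlap.

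Housing was then compared within each genotype. Among 5xFAD mice 22 of 37 genes were higher in GF than in SPF mice (6.97% of all genes) and 0 were lower (5.86%), with a median log2 fold change of 0.52 against 0.02 over all genes. The 3 smallest p-values were those of Ndufs8, Ndufa9 and Ndufb7. Ndufs8 measured 6.32, 6.17 and 6.12 log2 CPM in SPF 5xFAD mice and 7.06, 6.99, 6.90, 6.85 and 6.70 in GF 5xFAD mice. Every GF value was above every SPF value, and the difference was 0.70 ± 0.13 (adjusted p = 0.0017). Ndufa9, an accessory subunit at the junction of the arms, measured 7.13, 6.82 and 6.77 in SPF and 7.37 to 7.54 in GF 5xFAD mice, a difference of 0.54 ± 0.11 (adjusted p = 0.0034). Ndufb7 measured 5.53, 5.45 and 5.34 in SPF and 5.89 to 6.56 in GF 5xFAD mice, a difference of 0.90 ± 0.19 (adjusted p = 0.00404). The calls of these 3 genes held in all 39 alternative fits.

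Of the core Q module, Ndufs7 was higher by 0.61 ± 0.14 and Ndufs3 by 0.48 ± 0.13, in addition to Ndufs8. The 3 core N subunits were not called, at 0.25 ± 0.11 for Ndufv1, 0.44 ± 0.15 for Ndufv2 and -0.15 ± 0.12 for Ndufs1. Of the accessory subunits 18 of 29 were higher. Ndufa1 missed the threshold at 0.60 ± 0.21 (adjusted p = 0.0507). The comparison with GF WT mice and that with SPF 5xFAD mice share the 5 GF 5xFAD mice, and 17 genes were called in both. The SPF 5xFAD group had 3 mice, and the count of 22 fell to 5 without FAD_SPF_1146 and to 6 without FAD_SPF_1148, with lowest and highest medians of 0.45 and 0.60 over all single mice left out. Without FAD_GF_201 it was 26. The share of all genes called in these fits was not computed, so whether the members fell more than all genes is not known. Neutrophil markers were at 65.5 to 274 CPM in the SPF group and at most 0.0495 CPM in the GF group, and their part in the difference was not tested. Ly6G, which neutrophils carry, was among the antigens of the exclusion gate. DESeq2 called 26 genes higher (9.4% of all genes) and limma voom 33 (13.3%). Scaled by library size alone 15 were higher, where 4.09% of all genes were higher and 8.47% lower.

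The same housing comparisons were made in WT mice. GF against SPF WT mice gave 0 of 37 calls by edgeR (1.62% of all genes in either direction), with 4 genes higher and 0 lower at an unadjusted p under 0.05, 1 call higher by DESeq2 (2.81% of all genes) and 3 higher by limma voom (5.5%). Among the 4 higher at an unadjusted p were Ndufs7 (0.40 ± 0.12, adjusted p = 0.088) and Ndufs3 (0.28 ± 0.12) of the core Q module, and Ndufa8. ABX against SPF WT mice gave 0 of 37 calls (0% of all genes), with 1 gene at an unadjusted p under 0.05 and 0 calls by either other tool. ABX against GF WT mice gave 0 of 37 calls (6.88% of all genes), with 4 genes higher and 3 lower at an unadjusted p under 0.05, 2 calls higher by DESeq2 (4.28%) and 2 lower by limma voom (7.56%). The medians of these 3 comparisons were 0.06, 0.13 and 0.08.

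Antibiotic-treated 5xFAD mice were then set against both other housings. ABX against SPF 5xFAD mice gave 0 of 37 calls (0% of all genes), a median of 0.04, 1 gene at an unadjusted p under 0.05 and 0 calls by DESeq2 and by limma voom. ABX against GF 5xFAD mice gave 28 of 37 genes lower (6.07% of all genes) and 0 higher (4.52%), with a median of -0.46 against 0.01 over all genes. Ndufa1 fell by 0.84 ± 0.17 (adjusted p = 0.00227), Ndufs8 by 0.51 ± 0.10 (adjusted p = 0.00306) and Ndufa9 by 0.41 ± 0.09 (adjusted p = 0.00624), each on the log2 scale. Ndufs8 ranged from 6.03 to 6.69 in ABX 5xFAD mice with a median of 6.36, and the highest of them lay just below the lowest GF 5xFAD mouse at 6.70. Ndufa1 overlapped, since the highest ABX 5xFAD mouse (6.07) exceeded FAD_GF_201 (5.60). All 9 accessory subunits of the matrix arm were lower, as were Ndufs7 and Ndufs8 of the core. DESeq2 called 31 lower (7.73% of all genes) and limma voom 27 (6.37%). Scaled by library size alone 15 were lower, where 3.62% of all genes were lower and 7.67% higher. Fitted on the 2 groups alone, 1 of 37 genes was lower, Ndufa1, with a median of -0.43, where 1.1% of all genes were lower and 0.789% higher. In the fit of all 6 groups the count was 14 without FAD_ABX_1151, 15 without FAD_GF_185, 17 without FAD_GF_181, 18 without FAD_GF_184, FAD_ABX_1452 or FAD_ABX_1460, and 32 without FAD_GF_201. Border-associated macrophage markers were higher in most ABX 5xFAD than GF 5xFAD mice, by the values given above, and their part was not tested.

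Whether the genotype difference itself depended on housing was tested with interaction terms. Between ABX and GF mice the 5xFAD effect was smaller in ABX mice for 4 genes (0.843% of all genes) and larger for 0 (0.915%), with a median of -0.54. These were Ndufa1 (-1.37 ± 0.25, adjusted p = 0.00691), Ndufb2 (-1.005 ± 0.20, adjusted p = 0.0109), Ndufa6 (-0.80 ± 0.19, adjusted p = 0.0279) and Ndufs4 (-0.69 ± 0.18, adjusted p = 0.048). Ndufa6 is another LYR-motif subunit of the matrix arm, and Ndufs4 is a matrix-arm subunit whose loss is used to model Leigh syndrome. Ndufa6 differed by 0.51 ± 0.14 between 5xFAD and WT mice in GF housing and by -0.29 ± 0.12 under ABX, and Ndufs4 by 0.43 ± 0.14 and -0.26 ± 0.12, the ABX differences of both not called. DESeq2 called 11 genes (1.78% of all genes) and limma voom 5 (0.85%), all lower. By library size alone 3 were lower, where 0.451% of all genes were lower and 1.37% higher. Single mice left out moved the count between 2 (without any of FAD_GF_184, FAD_GF_185, WT_GF_199, WT_GF_231, WT_ABX_910 or WT_ABX_911) and 12 (without FAD_GF_201), and it was 7 without WT_ABX_932, 9 without FAD_ABX_1455 and 10 without FAD_ABX_1482. The Ndufa1 and Ndufb2 calls held in all 39 alternative fits.

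Between GF and SPF mice the interaction gave 0 of 37 calls by edgeR (0% of all genes), 0 by DESeq2 and 2 higher by limma voom (0.458%), with a median of 0.46 and 20 genes higher at an unadjusted p under 0.05. The limma voom calls were Ndufb9 (0.81 ± 0.18, adjusted p = 0.0339) and Ndufb8 (0.65 ± 0.16, adjusted p = 0.0468). By edgeR, Ndufb2 had the smallest p-value (0.76 ± 0.22, adjusted p = 0.373). The interaction between ABX and SPF mice gave 0 of 37 calls (0% of all genes) by all 3 tools, a median of -0.04 and 2 genes lower at an unadjusted p under 0.05.

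Complex I subunit genes are short, so the members were also read against other genes of like length. Their median summed exon length was 1381 bases (419 to 8086), against 3516 bases over all genes tested. In GF 5xFAD against GF WT mice the 2148 other genes no longer than this median had a median log2 fold change of 0.12, with 267 higher and 30 lower, so short genes on the whole shifted upward in this comparison. By length band the medians of members and other genes were 0.91 and 0.02 under 750 bases, 0.64 and 0.16 from 750 to below 1500, 0.30 and 0.05 from 1500 to below 3000, and 0.52 and -0.07 from 3000 bases. In each band the median of the members lay above that of the other genes. The slope of expression against log2 length, per mouse, was -0.064 to 0.007 in GF 5xFAD mice. In GF WT mice it was 0.065 in WT_GF_199, the mouse without which the GF genotype count was 18, and -0.012 to -0.008 in the other 3, within the GF 5xFAD range. It was -0.005 to 0.044 in SPF 5xFAD mice. In ABX 5xFAD mice it ran from -0.074 in FAD_ABX_1482, which had the highest member mean of the group (5.71), to 0.087 in FAD_ABX_1460, which had the next to lowest (5.20).

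With offsets that remove the trend on exon length within each library, 22 of the 27 GF genotype calls remained and the median fell from 0.58 to 0.51. The genes lost were Ndufa8, Ndufb4, Ndufc2, Ndufs4 and Ndufs8, so no core subunit was left among the calls. With the length of the principal transcript in place of exon length, 17 of the 27 remained and the median was 0.38. For GF against SPF 5xFAD mice 17 genes were called with either offset, 16 of them also without, at medians of 0.40 and 0.36. For ABX against GF 5xFAD mice 23 and 19 genes were called, at medians of -0.37 and -0.33. The other short genes then had medians of -0.02 and -0.03 in the GF genotype comparison. Ndufa1, the shortest member at 419 bases, stayed at or above a log2 fold change of 1.85 between GF 5xFAD and GF WT mice in every fit.

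**Figure D4:**
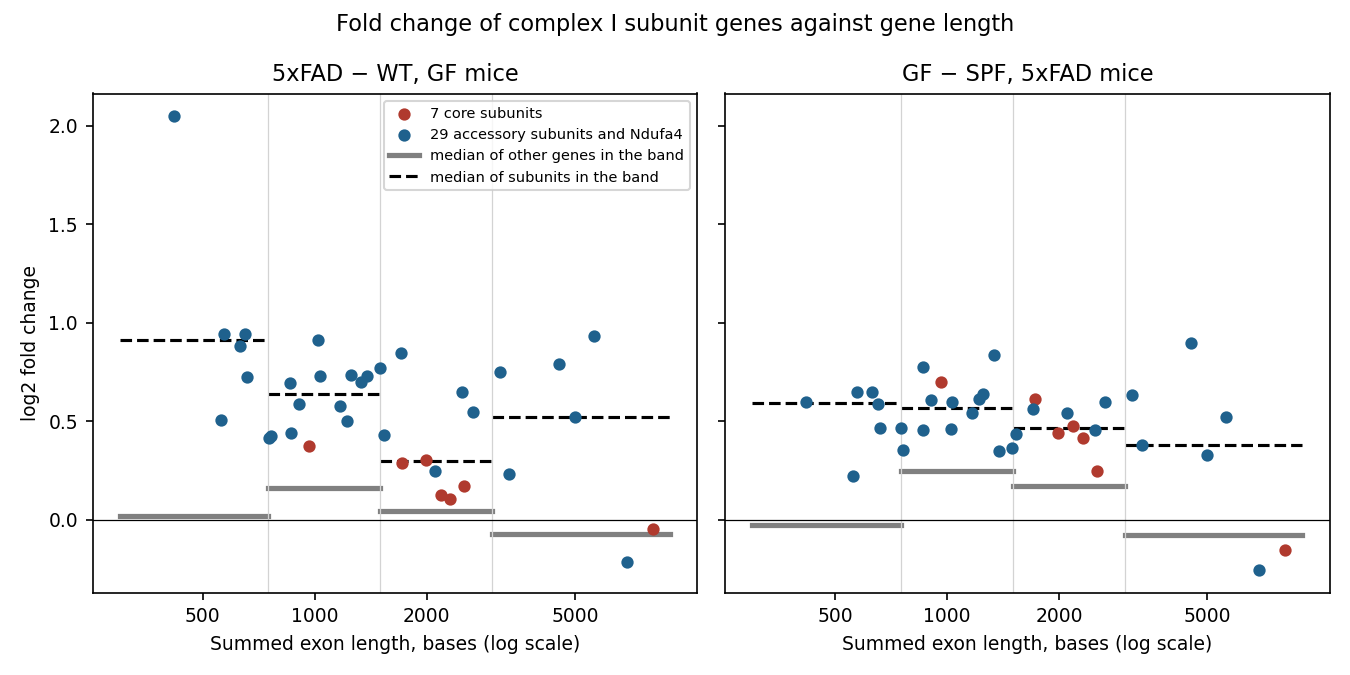
log2 fold change of the 37 genes against summed exon length (log axis) in GF 5xFAD against GF WT mice (left) and GF against SPF 5xFAD mice (right), with the medians of the members (dashed) and of all other tested genes (grey) in 4 length bands. The median of the members lies above that of the other genes in each band, and between 1500 and 3000 bases the core subunits lie below most accessory subunits on the left.

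Core subunits have longer genes than accessory subunits, with median exon lengths of 2178 and 1217 bases. In the band from 1500 to below 3000 bases, chosen after the values were seen, where 5 genes of each class fall, 0 of 5 core and 4 of 5 accessory subunits were called in the GF genotype comparison. The log2 fold changes of the 5 accessory subunits were 0.25 to 0.85. Of the core subunits in this band Ndufs7 (0.29) and Ndufv2 (0.31) lay above the lowest accessory value, and Ndufv1 (0.17) and Ndufs3 (0.13) below it. The classes therefore overlapped. Within the range of core principal transcripts (983 to 2661 bases) 1 of 7 core and 6 of 8 accessory subunits were called, with medians of 0.17 and 0.59. These counts describe the classes, and no test between them was run.

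The mitochondrially encoded subunits were measured from the same libraries. Of 7 such genes 5 were tested, mt-Nd1, mt-Nd2, mt-Nd4, mt-Nd5 and mt-Nd6, while mt-Nd3 and mt-Nd4l fell under the filter with 65 and 0 reads in all. All genes of the mitochondrial genome together made up 0.10% (FAD_ABX_1460) to 0.43% (FAD_SPF_1144) of the reads counted in a library. Why mt-Nd4l had 0 reads was not tested, nor how fully reads of the other mitochondrial genes were counted. mt-Nd1 was at 9.15 ± 0.27 log2 CPM in SPF 5xFAD mice, 8.76 ± 0.28 in GF 5xFAD, 8.52 ± 0.54 in ABX 5xFAD, 8.42 ± 0.23 in SPF WT, 8.67 ± 0.28 in ABX WT and 7.82 ± 0.23 in GF WT mice. All 5 genes were higher in GF 5xFAD than in GF WT mice (median 1.00), and 3 of 5 were higher in SPF 5xFAD than in SPF WT mice (median 0.73). None was called in ABX mice by genotype (median -0.10, 1 lower at an unadjusted p under 0.05) or between GF and SPF 5xFAD mice (median -0.43, 1 lower at an unadjusted p under 0.05), both by edgeR. In the latter comparison the nuclear subunits had a median of 0.52, opposite in sign. GF WT mice were the low group: all 5 genes were higher in ABX than in GF WT mice (median 0.97), a comparison with 0 calls among the nuclear subunits by edgeR. For the interaction of ABX against GF mice 4 of 5 were lower, led by mt-Nd2 (-1.47 ± 0.32, adjusted p = 0.0206).

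Assembly factors help to build the complex without staying in it. Of 17 tested, 1 was higher in GF 5xFAD than in GF WT mice (median -0.03), the gene listed as 1810043H04Rik, which RefSeq names Ndufaf8 (0.73 ± 0.21, adjusted p = 0.0139). Ndufaf3, which helps assemble the Q module, was higher in GF than in SPF 5xFAD mice (0.44 ± 0.14, adjusted p = 0.0388) and lower in ABX than in GF 5xFAD mice (-0.50 ± 0.12, adjusted p = 0.00729). It measured 4.70 ± 0.15 log2 CPM in GF 5xFAD mice against 4.20 to 4.35 as group means elsewhere. Ndufaf4 was lower in ABX 5xFAD than in ABX WT mice (-0.35 ± 0.10, adjusted p = 0.0198).

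The other respiratory complexes were measured beside complex I. Of 40 nuclear genes of complexes II to V, 30 were higher in GF 5xFAD than in GF WT mice with a median of 0.63, 21 were higher in GF than in SPF 5xFAD mice (0.47) and 28 were lower in ABX than in GF 5xFAD mice (-0.45). By complex, the GF genotype calls were 3 of 4 in complex II, 5 of 9 in complex III, 10 of 11 in complex IV and 12 of 16 in complex V. Cox6a1 and Cox4i1 of cytochrome c oxidase were higher by 1.22 ± 0.16 and 1.13 ± 0.14 (adjusted p = 1.87e-06 and 1.14e-06) and were also called in SPF and in ABX mice. Uqcr10 and Uqcr11 of complex III were higher by 1.15 ± 0.17 and 1.14 ± 0.19 (adjusted p = 1.26e-05 and 7.89e-05). Sdhb, an iron-sulfur subunit of complex II, had the smallest change of these 5 named genes at 0.37 ± 0.10 (adjusted p = 0.0102). The nuclear complex I median of 0.58 lay within the range of the 4 complexes, 0.31 in complex II to 0.91 in complex IV.

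**Figure D5:**
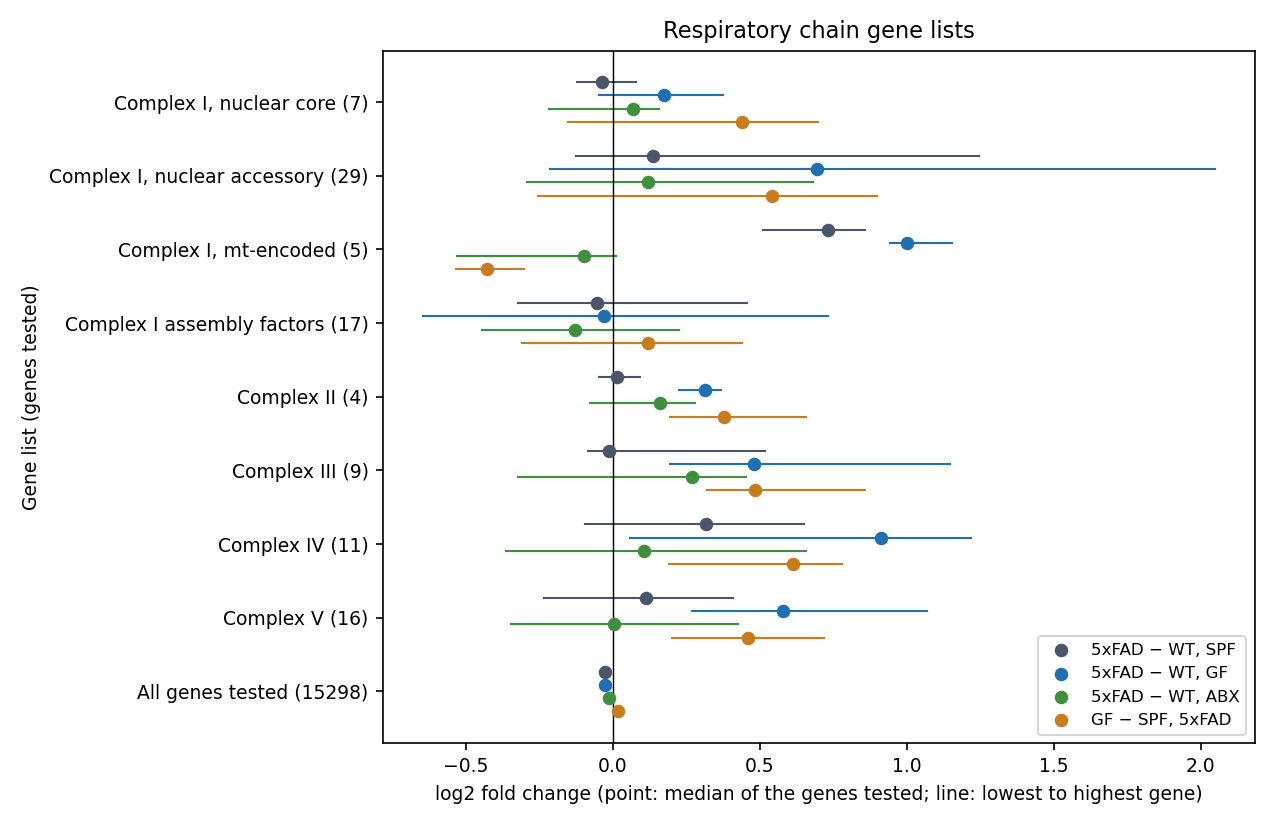
Median log2 fold change (points) and range from the lowest to the highest gene (lines) of respiratory chain gene lists in 4 comparisons, with the number of genes tested in brackets and the median of all genes at the bottom. Accessory complex I subunits and complexes III to V have GF genotype medians of 0.48 to 0.91, assembly factors lie at -0.03, and mitochondrially encoded subunits turn negative between GF and SPF 5xFAD mice.

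Regulators of nuclear respiratory genes were listed beside the subunits. Of 6 tested, 0 were called between GF 5xFAD and GF WT mice by edgeR, with 1 lower at an unadjusted p under 0.05. Between GF and SPF 5xFAD mice Gabpa and Yy1, which encode factors whose letters were searched in the promoters, were lower by 0.63 ± 0.19 and 0.55 ± 0.17 on the log2 scale (adjusted p = 0.0259 and 0.0308). Esrra, an orphan nuclear receptor that acts on respiratory genes, was lower in ABX than in GF 5xFAD mice (-0.46 ± 0.13, adjusted p = 0.0226). In ABX mice Yy1 and Tfam were lower in 5xFAD than in WT mice (-0.54 ± 0.14 and -0.38 ± 0.11, adjusted p = 0.0101 and 0.0173). Ppargc1a had 37 reads over all libraries and was not tested.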

How the data were processed

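Hippocampal microglia of 28 mice were sorted as CD11b+CD45lo cells, and cDNA was made with SMARTer v4 and Nextera XT, a kit that does not mark strand. The deposited files hold whole-number read counts for each gene: the authors aligned single reads with STAR to GRCm38 and counted them on GENCODE M21 genes with featureCounts, per the study's methods. The submitters' processing notes name STAR 2.7.2 and featureCounts 1.6.2 but give a human build, GRCh38.p12, and also list CASAVA 1.8.2, FastQC 0.11.8, limma 3.40.6 and edgeR 3.26.7. The strand setting of the counting is not given in the sources used here, and 19 members overlap another annotated gene, 6 of them on the same strand, so reads of both cannot be told apart. Coordinates are those of GENCODE M21 (GRCm38). They equal the deposited ones for 26 members and differ by up to 2107 bases for 11.

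From the counts, 92 spike-in rows were left out, genes were filtered with filterByExpr (minimum count 10, total 15), scaled by TMM and tested with edgeR 4.0.16 in R 4.3.3 (glmQLFit and glmQLFTest, 2-sided) in one model of 6 groups and all 28 mice, with Benjamini-Hochberg adjustment over 15298 genes. Errors of fold changes are the log2 fold change divided by the square root of F. log2 CPM used a prior count of 2. Libraries held 14441610 to 29977395 reads, and every replicate pair differed by more than sampling noise (lowest chi-square per degree of freedom 6.92 over 54 pairs). Alternatives were other scalings and filters, offsets for gene length and GC content (lowess, span 0.3), DESeq2 1.42.0, limma 3.58.1 voom with sample weights, only the groups compared, each mouse left out, and 26 mice without FAD_ABX_1151 and FAD_ABX_1482. Offsets for principal transcript length were added after seeing the data. GC content and principal length were known for 96.7% of genes tested. The script was tested on simulated data.

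The members and lists were chosen with earlier results of these data known. Named were the core subunits, of which 1 is counted but not reported here by name, the 3 members with the smallest p-values in each comparison with a call, the highest and lowest per length, members with near-identical relatives, and genes of the lists. Ndufs4, accessory subunits not called in GF mice and the promoter of Ndufs8 were named after their values were seen. Plots were drawn with matplotlib 3.10.9.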

Additional observations from a re-analysis of the deposited data

Results flagged for a closer look

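Among 75 groups of values (14 named subunits and the mean of all 37, in the 5 groups with at least 4 mice), 2 held a mouse set apart from its group by Dixon's criterion, which chance meets in about 1 group in 20. Ndufb9 was at 5.64 log2 CPM in WT_ABX_923, with the other ABX WT mice at 6.01 to 6.12. Ndufb9 was also at 6.23 log2 CPM in FAD_GF_201, the mouse with a conflicting description, with the other GF 5xFAD mice at 6.80 to 6.94.

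The 5xFAD effect differed between ABX and GF mice for 4 subunits, by the interaction term of the edgeR model. The difference of the log2 fold changes was -1.37 for Ndufa1, -1.005 for Ndufb2, -0.80 for Ndufa6 and -0.69 for Ndufs4, each smaller in ABX mice.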

How the results depend on the processing

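Counts of subunits called are compared with those of the report. Of the values recomputed for single named subunits 1254 kept direction and side of the threshold, 41 lost the threshold, 22 gained it and 9 changed sign. Of the recomputed counts 418 stayed within 1.5 times and 50 did not. The 418 include comparisons with 0 calls in the report that stayed at 0, and fits that left out a mouse of a group not compared. The tally is therefore no measure of how stable the comparisons with calls are. Library size alone gave 15 calls for ABX against GF 5xFAD mice, and in GF 5xFAD against WT mice took the median of all genes from -0.03 to -0.15 and that of the members from 0.58 to 0.45; the median of the members turned to -0.00995 in ABX 5xFAD against WT mice. At least 10 counts in every library gave 9 for the ABX against GF interaction. Exon length offsets gave 1 for GF against SPF WT, 1 for ABX against GF WT and 2 for the ABX against GF interaction, and GC offsets 1 for 5xFAD against WT in ABX mice. Principal transcript offsets gave 17 for 5xFAD against WT in GF mice, 5 in ABX mice, 1 for GF against SPF WT, 2 for ABX against GF WT and 2 for the ABX against GF interaction, with the 2 interaction medians of GF against SPF and ABX against GF at 0.28 and -0.33 and that of ABX against GF WT at -0.02. DESeq2 gave 1 for GF against SPF WT, 2 for ABX against GF WT and 11 for the ABX against GF interaction. limma voom gave 3 for 5xFAD against WT in SPF mice, 3 for GF against SPF WT, 2 for ABX against GF WT and 2 for the GF against SPF interaction. Only the groups compared gave 3 for 5xFAD against WT in SPF mice, 1 in ABX mice, 1 for ABX against GF 5xFAD, 1 for GF against SPF WT, 1 for ABX against GF WT and 2 for the ABX against GF interaction. The 26 mice gave 1 for GF against SPF WT and 1 for ABX against GF WT. The cause was not tested.

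Leaving out 1 mouse gave 18 to 28 calls for 5xFAD against WT in GF mice, 1 to 6 in ABX mice, 5 to 26 for GF against SPF 5xFAD, 14 to 33 for ABX against GF 5xFAD, 0 to 1 for GF against SPF WT (1 without FAD_ABX_1151 or FAD_ABX_1482), 0 to 1 for ABX against GF WT (1 without FAD_GF_201 or FAD_ABX_1482) and 2 to 12 for the ABX against GF interaction. The median ran from -0.02 to 0.12 for ABX against SPF 5xFAD, 0.01 to 0.11 for GF against SPF WT, 0.01 to 0.12 for ABX against GF WT and -0.12 to 0.06 for the ABX against SPF interaction, all without calls by edgeR in the report. Sign changes were all in core subunits in comparisons where the report does not call them. In GF 5xFAD against WT mice Ndufs3 was at -0.0521 with principal transcript offsets, and Ndufs1 at 0.0645 with exon length offsets, 0.00887 with GC offsets and -0.104 to 0.0426 with 1 mouse left out. For GF against SPF 5xFAD Ndufs1 was at 0.0609 with exon length and 0.0157 with GC offsets, and for ABX against GF 5xFAD at -0.0604 and -0.0225. No paired analysis was made, since each mouse belongs to a single group and the labels used here do not give the litter of the littermates.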
